A study of Mus musculus with 4 samples.

Results

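Chromatin accessibility was examined at 10 macrophage surface marker genes in bone marrow-derived macrophages (BMDMs) of WT mice and of mice with a conditional knockout of histone H3.3 (cKO). The genes were Itgam, Itgax, Adgre1, Cd14, Cd68, Mertk, Axl, Sirpa, Cd86 and Trem2, chosen by name as known surface markers, with earlier results of these data known. Every ATAC-seq peak that overlapped the gene body or the 10 kb on either side of it (GENCODE vM21 annotation, mouse build mm10) was taken. Overlapping peaks (1 bp or more) of different libraries were merged, which gave 75 regions at the 10 genes out of 71243 regions in the genome. The gene windows held 65 and 74 peaks in WT replicates 1 and 2, and 58 and 64 peaks in cKO replicates 1 and 2.

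ATAC-seq uses the Tn5 transposase to cut accessible DNA, and a peak marks a stretch where cuts are dense. The series holds 4 libraries of BMDMs, with 2 biological replicates for each genotype. WT mice were H3f3a fl/fl and H3f3b fl/fl without Cre, and cKO mice carried the same floxed alleles with LysM cre/cre, so that both H3.3 genes (exon 2 of H3f3a and exons 1 to 4 of H3f3b) were floxed in each genotype and Cre was present in the cKO alone. The mice were on a C57BL/6 background and 8 to 10 weeks old, and marrow cells were grown with 20% L929-conditioned medium for 6 to 8 days, with day 7 cells used for ATAC-seq. LysM (Lyz2) Cre acts in myeloid cells, the cre/cre animals also have both Lyz2 copies replaced, and the effects of Cre and of the H3.3 deletion cannot be told apart with these groups.

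Macrophages are recognised by surface proteins with distinct tasks. The integrin alpha chains CD11b (Itgam) and CD11c (Itgax) pair with a common beta chain in adhesion and complement uptake, F4/80 (Adgre1) is the standard mouse macrophage antigen, and CD14 hands lipopolysaccharide to TLR4. CD68 is a lysosome-associated glycoprotein. MERTK and AXL are receptor tyrosine kinases of the TAM family, whose ligands GAS6 and protein S link receptors of the family to apoptotic cells. SIRPα receives the CD47 signal that restrains phagocytosis, CD86 is a co-stimulatory ligand for T cells, and TREM2 is a lipid-sensing receptor that signals through TYROBP.

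The strength of a region was given as a percentile. For each library, the area of every peak was ranked among all peaks of that library, and a region took the percentile of its strongest peak (100 is the largest peak of the library). Percentiles were used because peak areas scale with the depth of a library, which is unknown here. A gained region had a peak in each cKO library and none in WT, a lost region had a peak in each WT library and none in cKO, and a shared region had a peak in all 4 libraries. A peak just under the limit of the peak caller (an area of 200) is missing from a list, so a lost region is one without a called peak and not one without any signal.

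The sequences of 8 stretches that carry the results below are shown first. A set of 6 motifs known from macrophage enhancers was searched on both strands, namely PU.1 (GAGGAAGT), AP-1 (TGANTCA), C/EBP (TTGCNNAA), RUNX (AACCACA), IRF (GAAANNGAA) and E-box (CACGTG), and capitals mark every match. The promoters of Axl and Mertk (RefSeq, GRCm38.p6, 250 bases before to 50 after the gene start, in the direction of the gene) are at chr7:25788684-25788983 (minus strand) and chr2:128698665-128698964 (plus strand), and are shown because the first carried a peak in cKO alone and the second fell in cKO. Regions are numbered by position within each gene window. The other windows are 300 bp around the summit of the strongest peak, on the plus strand of mm10. They are a lost Mertk region in intron 1 (chr2:128709514-128709813), the Mertk region with the largest fall, in intron 4 (chr2:128745850-128746149), a lost Mertk region in intron 5 (chr2:128751004-128751303), the Trem2 upstream region that rose most (chr17:48341888-48342187), and the Cd86 regions that rose and fell most (chr16:36598271-36598570 and chr16:36632082-36632381).
Axl promoter: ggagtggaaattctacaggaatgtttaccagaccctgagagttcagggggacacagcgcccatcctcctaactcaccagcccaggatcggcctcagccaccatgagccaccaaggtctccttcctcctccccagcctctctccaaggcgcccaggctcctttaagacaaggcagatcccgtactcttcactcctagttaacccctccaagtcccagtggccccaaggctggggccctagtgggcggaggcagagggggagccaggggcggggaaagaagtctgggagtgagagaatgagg
Mertk promoter: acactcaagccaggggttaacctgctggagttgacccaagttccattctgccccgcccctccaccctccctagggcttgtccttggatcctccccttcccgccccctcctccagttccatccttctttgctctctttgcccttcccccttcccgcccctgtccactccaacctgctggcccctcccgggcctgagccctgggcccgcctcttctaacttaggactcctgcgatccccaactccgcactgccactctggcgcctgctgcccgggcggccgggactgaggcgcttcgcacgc
Mertk region 2: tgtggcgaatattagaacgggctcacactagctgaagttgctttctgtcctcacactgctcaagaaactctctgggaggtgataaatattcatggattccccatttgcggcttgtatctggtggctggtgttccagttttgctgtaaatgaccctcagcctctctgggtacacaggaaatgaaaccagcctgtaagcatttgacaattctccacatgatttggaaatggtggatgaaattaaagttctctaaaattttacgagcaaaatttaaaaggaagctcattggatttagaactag
Mertk region 5: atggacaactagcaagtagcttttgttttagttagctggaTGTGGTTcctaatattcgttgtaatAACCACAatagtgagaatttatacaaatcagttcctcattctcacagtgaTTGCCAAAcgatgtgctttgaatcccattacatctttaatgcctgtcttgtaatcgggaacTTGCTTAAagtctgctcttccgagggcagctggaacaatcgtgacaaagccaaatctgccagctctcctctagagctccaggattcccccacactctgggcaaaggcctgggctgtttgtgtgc
Mertk region 8: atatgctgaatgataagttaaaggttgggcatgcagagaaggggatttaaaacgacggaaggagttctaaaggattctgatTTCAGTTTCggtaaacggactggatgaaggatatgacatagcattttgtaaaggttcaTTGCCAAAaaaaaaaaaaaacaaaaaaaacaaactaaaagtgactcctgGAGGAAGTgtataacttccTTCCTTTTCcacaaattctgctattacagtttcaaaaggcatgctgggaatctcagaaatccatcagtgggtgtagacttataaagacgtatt
Trem2 region 2: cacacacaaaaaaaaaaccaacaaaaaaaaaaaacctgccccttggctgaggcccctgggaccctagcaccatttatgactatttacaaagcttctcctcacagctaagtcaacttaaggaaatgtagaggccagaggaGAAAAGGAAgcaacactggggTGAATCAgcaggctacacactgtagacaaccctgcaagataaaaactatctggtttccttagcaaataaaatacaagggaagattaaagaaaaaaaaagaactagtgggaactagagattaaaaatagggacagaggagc
Cd86 region 1: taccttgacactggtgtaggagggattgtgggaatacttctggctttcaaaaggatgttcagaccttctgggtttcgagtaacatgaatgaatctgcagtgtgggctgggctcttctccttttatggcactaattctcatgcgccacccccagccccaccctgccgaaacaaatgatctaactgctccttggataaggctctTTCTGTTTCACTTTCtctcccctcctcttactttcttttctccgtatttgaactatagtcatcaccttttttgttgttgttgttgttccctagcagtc
Cd86 region 4: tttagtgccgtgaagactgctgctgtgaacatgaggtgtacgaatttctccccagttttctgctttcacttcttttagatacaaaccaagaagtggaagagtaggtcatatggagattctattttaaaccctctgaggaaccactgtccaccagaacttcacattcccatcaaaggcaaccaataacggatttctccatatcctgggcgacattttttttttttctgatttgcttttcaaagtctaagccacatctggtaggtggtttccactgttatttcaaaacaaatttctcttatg

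None of the 6 motifs matched in either promoter printed here or in the windows of Mertk region 2 and Cd86 region 4, which says only that these letters are not in those windows. The Mertk intron 4 window held 2 RUNX and 2 C/EBP matches, and the Mertk intron 5 window held a PU.1 match, a C/EBP match and 2 IRF matches. The Trem2 window held an AP-1 and an IRF match, and Cd86 region 1 held 2 overlapping IRF matches. Over the 75 regions, PU.1 matched in 13 (17.3%, against 11.8% of all 71243 regions), AP-1 in 15 (20.0%, against 19.1%), C/EBP in 15 (20.0%, against 16.05%), RUNX in 6 (8.00%, against 10.5%), IRF in 10 (13.3%, against 12.1%) and E-box in 3 (4%, against 6.03%). Of the 12 Mertk regions, 4 held a C/EBP match, 3 a PU.1 match, 2 a RUNX match and 1 an IRF match, and none held an AP-1 or E-box match. RefSeq promoters were matched for 6 of the 10 genes (Itgam, Itgax, Cd68, Mertk, Axl and Trem2). AP-1 matched in 3 of these (Itgax, Cd68 and Trem2) and C/EBP in 2 (Cd68 and Trem2), against 7.81% and 10.8% of all 32851 promoters, while the other motifs matched in none (3.20% of all promoters for PU.1, 5.27% for RUNX, 8.56% for IRF and 7.15% for E-box). The Mertk promoter was 66.0% G or C with 14 CpG sites and that of Axl 60.3% with 6 CpG sites, and the median promoter had 52.7% and 7 sites.

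The libraries were compared before the genes. WT lists held 55742 and 64939 peaks and cKO lists 51955 and 60884, covering 28.4 to 35.2 Mb. The region over the floxed exon 2 of H3f3a had a weak peak in both WT libraries (percentiles 5.02 and 19.1) and none in cKO, whereas the H3f3b promoter region was at 94.2 and 95.5 in WT against 87.0 and 81.4 in cKO. The study reported that deletion of H3f3b varied, being complete in some cKO samples and partial in others. Its extent in these libraries was not tested. Of 7 macrophage markers, 5 are among the 10 genes (Adgre1, Itgam, Cd14, Cd68 and Mertk) and so are no separate check. The other 2 are Spi1, at 99.5 and 99.6 over its promoter in WT and 99.2 and 99.3 in cKO, and Csf1r, which was lower in cKO. All 7 promoters carried a peak in every library, with summed percentiles of 560.3 and 593.6 in WT against 529.1 and 548.6 in cKO. No promoter of the 3 B cell and 2 erythroid markers did. Of 5 neutrophil markers, 2 to 3 had a promoter peak in each library (S100a9 and Elane in none). Their summed percentiles were 106 and 108 in WT against 80.6 and 92.0 in cKO. The Ly6g promoter had a peak in cKO alone (30.3 and 17.8), whereas S100a8 fell from 76.5 and 78.3 in WT to 50.3 and 64.0 in cKO. Camp was at 29.1 and 29.5 in WT, with no peak in cKO replicate 1 and 10.2 in cKO replicate 2. Of 4 dendritic cell markers, 3 had a promoter peak in every library (Xcr1 in none), with sums of 104.1 and 143.2 in WT against 130 and 166 in cKO. Within that list Flt3 and Siglech were higher in both cKO libraries than in both WT libraries, and Zbtb46 was lower. Of 3 T cell markers, Lck had a promoter peak in every library (sums 26.0 and 38.2 in WT, 28.6 and 39.0 in cKO), and the 2 stromal markers summed to 18.99 and 44.8 in WT against 9.53 and 59.5 in cKO. The part of such differences in the results at the 10 genes was not tested, and in bulk libraries fewer cells with an open site and a less open site in each cell cannot be told apart.

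Across the 10 genes the share of regions kept in cKO was close to that of the genome, and the integrin genes alone had no gained, lost or called region. Of the 75 regions, 47 were shared (62.7%, against 62.9% of all regions), 5 were gained, 7 were lost and 16 were called in some other combination of libraries. Gained regions made up 6.67% of the regions of the 10 genes, against 3.72% of all regions, and lost regions 9.33%, against 7.25%. Gained regions lay at 3 of the 10 genes (Adgre1, Axl and Sirpa) and lost regions at 3 (Mertk, Sirpa and Cd86), where 11.1% of the 16367 protein-coding genes with any region had a gained region and 21.8% a lost one. Mertk held 5 of the 7 lost regions, and without Mertk 2 of 63 regions (3.17%) were lost. The lost count rose from 7 to 12 when WT replicate 1 or cKO replicate 2 was left out. Leaving out a library makes the criterion for a lost region easier to meet, and the genome share under these settings is not given.

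Among the 47 shared regions, 10 (21.3%) had both cKO percentiles above both WT percentiles, against 22.2% of the 44820 shared regions of the genome, and 19 (40.4%) had both below, against 35.1%. The median difference (mean cKO percentile minus mean WT percentile) was -1.10 at the 10 genes and also -1.10 over all shared regions. The count of higher regions became 16 without WT replicate 2 and 19 without cKO replicate 1, and that of lower regions 29 without cKO replicate 2. Such counts tend to rise when a library is left out, since genotypes with fewer libraries overlap less easily. When regions were ranked among shared regions only, which removes the effect of unequal list lengths, the genome-wide median was 0.0831 and that of the 10 genes -0.0100. The plot of differences by gene shows how unevenly these regions were spread.

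**Figure D1:**
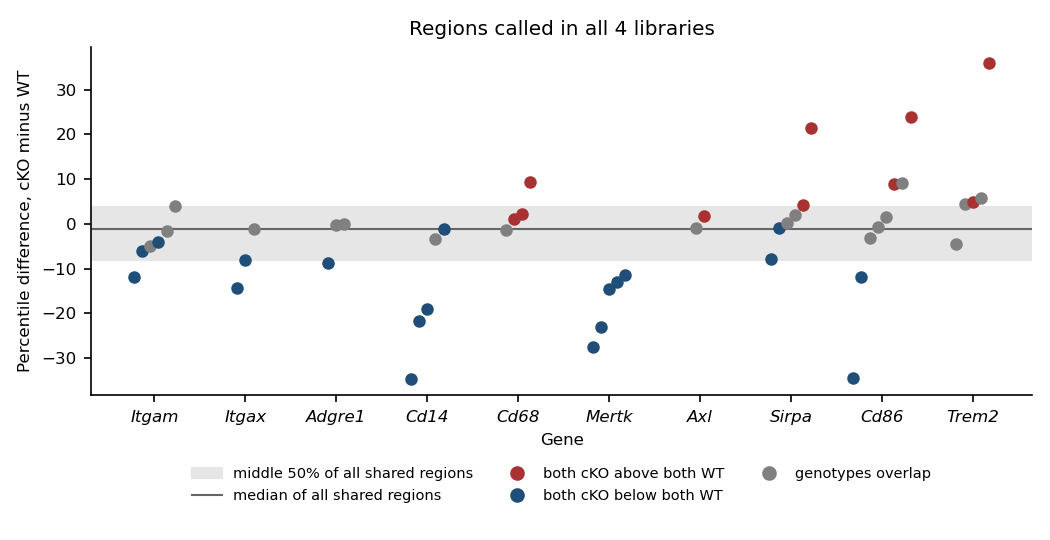
Mean cKO percentile minus mean WT percentile (vertical axis, percentile points) for the 47 regions called in all 4 libraries, by gene, with colour for regions whose genotypes did not overlap and the median and middle 50% of all 44820 shared regions behind. All 5 Mertk regions lie between -27.4 and -11.5, while Axl, Cd68 and Trem2 have no region with both cKO libraries below WT.

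A moderated test (limma on the normal scores of the percentiles, adjusted by Benjamini-Hochberg over 44820 regions) called 15 of the 47 regions at an adjusted p under 0.05. It called 8 higher in cKO (17.02%, against 6.77% genome-wide) and 7 lower (14.9%, against 13.1%). With 2 libraries a genotype, this fit took the spread of each region wholly from the trend over all regions, so its p-values do not carry a region's own scatter. A second fit, on ranks among shared regions, did carry it and called 17 (8 higher and 9 lower), with 14 regions called the same way in both (7 higher and 7 lower). The second fit called 17.3% of all shared regions higher and 17.7% lower, so that its shares at the 10 genes (17.02% and 19.1%) lay near the background and the excess of higher calls in the first fit was not seen in it. Genome-wide, 34.1% of the calls of the first fit and 49.4% of those of the second were higher in cKO. Adjusted p-values of both fits are given below as first and second. Of the 14 calls, those at the Cd68 upstream, Cd86 region 8 and Trem2 downstream regions were lost with summed area (adjusted p = 0.0577, 0.0621 and 0.0515). Those at the Cd14 far downstream, Cd68 upstream, Cd86 region 1, Trem2 downstream and Sirpa 3′ regions were lost with the summit p-value (adjusted p = 0.0998, 0.306, 0.309, 0.315 and 0.938), and with area per bp 2 of the 14 were called the same way, at Cd14 and Trem2. With any library left out, the first fit called fewer regions, both at the 10 genes and across the genome.

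Promoters of the markers were compared next. A region over the annotated promoter (from 1 kb before to 100 bp after a start site) had a peak in every library for 9 of the 10 genes. The share of all genes for which this held is not given. Sirpa, Trem2 and Cd68 had the strongest promoter regions and Itgax, Itgam and Axl the weakest. The order of the means was the same in both genotypes apart from Mertk, at rank 3 in WT and 5 in cKO, and Axl, whose start site had no called peak in WT. In WT the ranges of Trem2, Mertk and Cd68 overlapped, as did those of Cd86 and Itgax. In cKO those of Mertk and Adgre1 overlapped, as did those of Itgax, Itgam and Axl, and the other neighbours in the order did not overlap. Over the 11 shared regions at promoters of the 10 genes the median difference was -1.10 (all promoter regions -0.513), and over the 31 shared regions at no promoter it was -3.94 (all such regions -1.84).

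**Figure D2:**
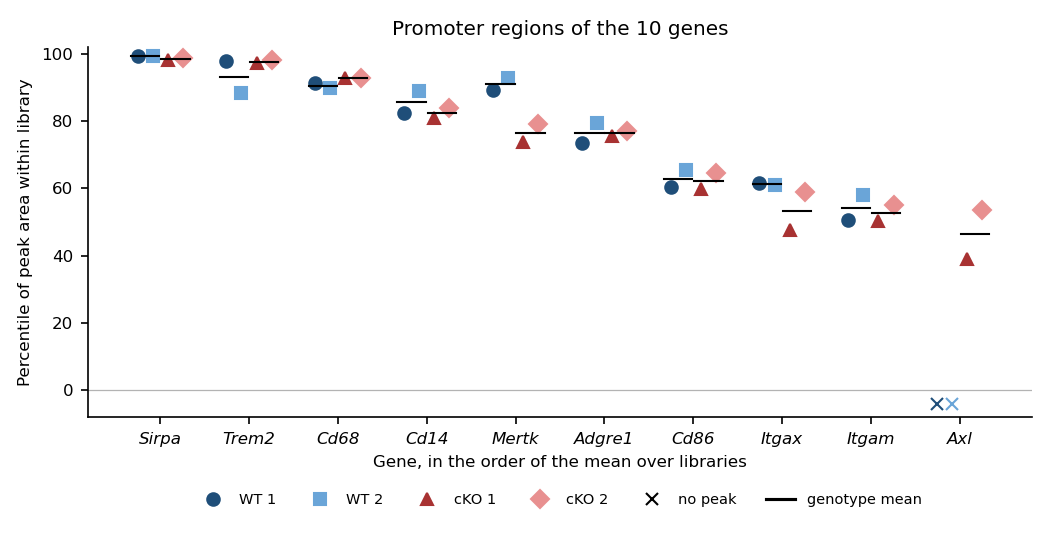
Percentile of the strongest peak over the promoter of each gene (vertical axis) in WT 1, WT 2, cKO 1 and cKO 2, with the genotype mean as a line and a cross where no peak was called. Mertk is the gene with shared promoter peaks whose cKO libraries (73.9 and 79.1) lie furthest below WT (89.3 and 92.8), and Axl has a promoter peak in cKO alone.

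The integrin genes, which lie 11055 bp apart on chromosome 7, changed little. Itgam (ENSMUSG00000030786.18, chr7:128062640-128118491, plus strand) had 8 regions, 6 of them shared. Its promoter region stood at 50.6 and 58.0 in WT against 50.3 and 55.1 in cKO, and the genotypes overlapped. In introns 2 and 12, 3 regions of Itgam had both cKO libraries below WT, the largest difference being at 128067793 to 128068206 in intron 2 (30.1 and 42.6 against 19.3 and 29.6, a difference of -11.9, adjusted p = 0.499 first and 0.145 second). The strongest Itgam region, at 128063243 to 128063764 in intron 1, reached 81.3 and 85.7 in WT against 74.95 and 82.2 in cKO, with overlap. Itgax (ENSMUSG00000030789.9, chr7:128129547-128150657, plus strand) had 4 regions, 3 of them shared. Its promoter region was at 61.6 and 60.9 in WT against 47.6 and 58.9 in cKO (adjusted p = 0.448 first and 0.309 second), and a region in intron 14 (128138435 to 128138717) at 27.6 and 22.2 against 18.6 and 2.77 (difference -14.3, adjusted p = 0.360 first and 0.381 second). An internal promoter of Itgax at 128133589 to 128134032 stood at 71.1 and 71.4 in WT against 67.2 and 73.1 in cKO. No region of either integrin was called by limma in either fit, and none was gained or lost.

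Adgre1 (ENSMUSG00000004730.15, chr17:57358691-57483527, plus strand) had 7 regions, 3 of them shared. Its promoter region was at 73.6 and 79.3 in WT against 75.6 and 77.2 in cKO, so the cKO values lay between the WT values (difference -0.0128). A region in intron 7 (57409665 to 57410033) had both cKO libraries lower (41.9 and 42.6 against 32.1 and 34.9) without a call in either fit. The 2 gained regions of Adgre1 lay in intron 2 (57398941 to 57399148) and intron 18 (57461891 to 57462316). Both were weak, at percentiles 3.86 and 9.34 and at 0.233 and 4.52 in cKO, and neither was gained when the lists were cut to equal length or to their stronger peaks.

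At Cd14 (ENSMUSG00000051439.7, chr18:36725067-36726798, minus strand) the 2 regions downstream of the gene fell in cKO, and no other region was called. The region furthest downstream (36715838 to 36716196, 9050 bp beyond the transcript) was at 37.9 and 47.9 in WT against 7.80 and 8.59 in cKO, a difference of -34.7 (adjusted p = 0.0189 first and 0.0115 second). The next (36719883 to 36720394, 4929 bp beyond the transcript) was at 74.4 and 75.8 in WT against 51.8 and 60.5 in cKO (difference -18.9, adjusted p = 0.00243 first and 0.00404 second). That second region was called lower in all 7 fits over the 47 regions, as 1 of 2 regions of the 10 genes for which this held. The main promoter region, which overlaps most of the gene as merged over libraries, was at 82.5 and 89.0 in WT against 81.0 and 83.8 in cKO, with overlap, and in cKO replicate 1 its peaks covered 692 bp. A weaker region at 36727554 to 36727954, 956 bp upstream, was at 23.6 and 44.8 in WT against 18.8 and 6.35 in cKO (adjusted p = 0.187 first and 0.151 second). The strongest region of the window lay over the promoter of the neighbour Tmco6 (94.2 and 94.97 against 93.4 and 93.6).

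Cd68 (ENSMUSG00000018774.13, chr11:69664213-69666153, minus strand) is short, and all 4 of its regions were shared. The promoter region stood at 91.2 and 89.7 in WT against 92.7 and 92.7 in cKO, so that both cKO libraries were above WT by a small margin (difference 2.23, adjusted p = 0.214 first and 0.0867 second). The one called region (69670924 to 69672839) lay 5728 bp upstream of Cd68 and over the promoter of the neighbour Eif4a1, a translation initiation factor gene. It was at 88.4 and 88.2 in WT against 97.8 and 97.6 in cKO (adjusted p = 2.07e-24 first and 0.00102 second). WT had 2 peaks and cKO 1 broad peak there, and when the peaks of a region were summed the normal-score difference went from 0.80 to 0.17, with no call. When area was divided by peak width the difference reversed. The region over the promoter of Mpdu1 was at 83.5 and 83.7 in WT against 84.2 and 85.1 in cKO.

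The TAM receptor genes moved in different ways. At Mertk (ENSMUSG00000014361.5, chr2:128698956-128802894, plus strand) every one of the 5 shared regions was lower in both cKO libraries, 5 further regions were lost, and the remaining 2 had a weak peak in cKO replicate 2 alone of the cKO libraries. The promoter region (128697963 to 128699350) was at 89.3 and 92.8 in WT (mean 91.0 ± 2.47 SD, n = 2) and 73.9 and 79.1 in cKO (76.5 ± 3.73 SD, n = 2), a difference of -14.5 (adjusted p = 2.92e-09 first and 0.00201 second). The region with the largest fall, in intron 4 (128745704 to 128746164), was at 57.6 and 59.9 in WT against 36.5 and 26.2 in cKO (difference -27.4, adjusted p = 0.0109 first and 0.0434 second). A region in intron 1 (128719269 to 128719723) was at 51.6 and 68.9 in WT against 31.0 and 43.4 in cKO (difference -23.0, adjusted p = 0.0221 first and 0.0169 second). The regions in intron 18 (128796307 to 128796953) and 3893 bp beyond the transcript (128806463 to 128807112) differed by -11.5 and -13.0 and were called in the second fit alone (adjusted p = 0.0758 and 0.0651 first, 0.0165 and 0.0152 second). With limma on area per bp, the differences of both regions had the opposite sign (normal-score differences of 0.166 and 0.0811, adjusted p = 0.705 and 0.885).

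The strongest of the lost Mertk regions lay in intron 1 (128709397 to 128709892) and was in the middle of the WT lists, at 47.1 and 57.0. The others were weaker. A second intron 1 region (128710816 to 128711066) was at 15.9 and 22.9, the intron 5 region (128750992 to 128751334) at 27.3 and 28.2, an intron 4 region (128746597 to 128746796) at 3.08 and 8.08, and a region at an internal start site within intron 8 (128771139 to 128771426) at 8.15 and 24.3. Peaks covered 5419 and 5472 bp of the Mertk window in WT and 2330 and 2969 bp in cKO, a mean difference of -2796 bp. This was the largest fall in covered length among the 10 genes, and the genotypes did not overlap, although an exact two-sided permutation test on 2 against 2 libraries cannot give a p below 0.333, the value found here. Mertk had 2 lost regions when the weaker peaks of every list were dropped.

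Axl (ENSMUSG00000002602.16, chr7:25757273-25788705, minus strand) had no called peak at its start site in WT and gained one in cKO. The region (25788435 to 25788930, exon 1) was at 39.1 and 53.6 in the cKO libraries. A second, weak gained region lay in intron 4 (25782111 to 25782377) at 2.204 and 14.1. With lists of equal length 1 region of Axl was gained, and with the weaker peaks of every list dropped none was. The intragenic region in intron 6 (25776563 to 25777250) did not separate the genotypes (86.8 and 87.9 in WT, 85.5 and 87.4 in cKO). The called region of the Axl window (25754136 to 25756803) lay 1804 bp beyond the gene over the promoter of the neighbour Hnrnpul1, an RNA-binding protein gene. It rose from 98.2 and 98.0 to 99.8 and 99.8 (adjusted p = 2.16e-38 first and 0.00105 second). WT had 2 peaks and cKO 1 broad peak there, and the sign reversed with area divided by width. Covered length in the Axl window was 2676 and 3124 bp in WT and 3842 and 4689 bp in cKO (exact two-sided permutation p = 0.333). Thus Mertk had 5 lost and no gained regions and Axl 2 gained and no lost regions, and the difference between the genes was not tested.

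**Figure D3:**
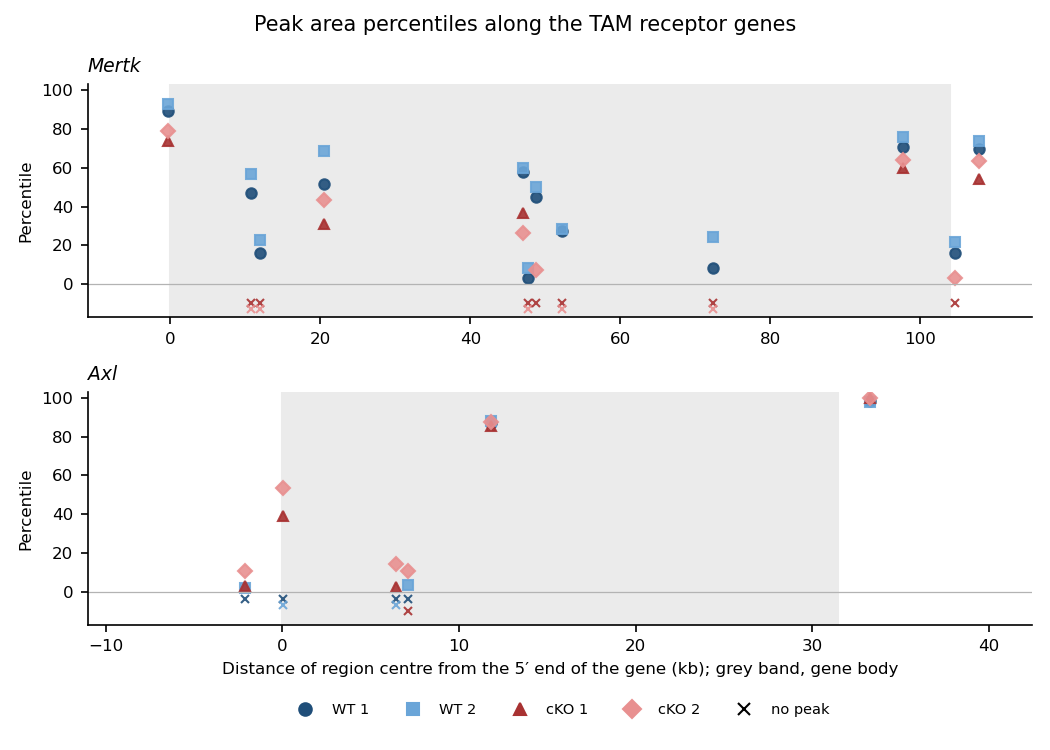
Percentile of each region (vertical axis) against its distance from the 5′ end of Mertk and Axl in kb (horizontal axis), for WT 1, WT 2, cKO 1 and cKO 2, with crosses under 0 for libraries without a peak and a grey band for the gene body. In Mertk the WT symbols lie above the cKO symbols at all 12 regions, and at the Axl start site cKO alone has peaks.

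Sirpa (ENSMUSG00000037902.18, chr2:129592835-129632228, plus strand) had 10 regions that moved in both directions. Its promoter region (129591684 to 129594475) was among the strongest of the genome in every library, at 99.5 and 99.3 in WT against 98.2 and 98.7 in cKO, and was called lower (difference -0.961, adjusted p = 3.22e-07 first and 0.0104 second). Toward the 3′ end, a region in intron 7 (129624431 to 129625445) was at 10.9 and 33.9 in WT against 40.4 and 47.0 in cKO (difference 21.3, adjusted p = 0.116 first and 0.0205 second), and by area per bp its difference had the opposite sign (adjusted p = 0.410). A region in exon 9 (129630155 to 129630860) was gained at 37.5 and 52.1, though not when the weaker peaks of every list were dropped. The region that begins inside the gene and is centred 773 bp beyond transcript Sirpa-211 (129631395 to 129634592) was at 91.6 and 95.1 in WT against 96.6 and 98.6 in cKO (adjusted p = 2.34e-10 first and 0.0147 second). In that region peaks covered 858 and 1628 bp in WT and 2712 and 3185 bp in cKO, and the difference had the opposite sign when peaks were ranked by summit p-value or by area per bp. Upstream, a region 6509 bp before the gene (129586040 to 129586612) had both cKO libraries lower (80.9 and 80.1 against 71.8 and 73.7, adjusted p = 0.0982 first and 0.0587 second). The lost region in intron 2 (129604087 to 129604415) was weak in WT, at 0.0215 and 9.21, and was not lost with lists of equal length. Peaks covered 7154 and 8244 bp of the Sirpa window in WT and 9302 and 11082 bp in cKO, the largest increase among the 10 genes (2493 bp, exact two-sided permutation p = 0.333).

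Cd86 (ENSMUSG00000022901.13, chr16:36603869-36666081, minus strand) had the most regions, 13, and its distal elements diverged while the promoter did not. The promoter region was at 60.5 and 65.4 in WT against 59.9 and 64.6 in cKO, with overlap. An intron 1 region (36631649 to 36632527) was at 64.6 and 76.0 in WT against 16.4 and 55.4 in cKO, a mean difference of -34.4 with a wide spread in cKO (SD 27.6, n = 2; adjusted p = 1.01e-05 first and 0.0436 second). Closer to the promoter, another intron 1 region (region 8, 36655757 to 36656363) rose from 70.8 and 73.6 to 80.6 and 81.7 (adjusted p = 0.0468 first and 0.00591 second). A region 5452 bp beyond the gene (region 1, 36598036 to 36598799), over the promoter of the non-coding gene Gm49662, rose from 27.6 and 40.3 to 51.3 and 64.2 (difference 23.8, adjusted p = 0.0281 first and 0.00417 second). An intron 2 region (36621135 to 36621428) was lost, from 21.6 and 21.0 in WT. The strongest Cd86 region, in intron 2 (36626713 to 36627351), overlapped between genotypes (85.9 and 87.6 against 87.3 and 89.2). Covered length was 4824 and 5452 bp in WT and 3799 and 4320 bp in cKO.

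Trem2 (ENSMUSG00000023992.14, chr17:48346401-48354147, plus strand) had 5 regions, all shared, and the largest rise at any of the 10 genes. The region 4282 bp upstream (48341913 to 48342325) was at 28.8 and 25.3 in WT against 61.9 and 64.1 in cKO, a difference of 36.0 (WT 27.0 ± 2.42 SD, cKO 63.0 ± 1.57 SD, n = 2 each; adjusted p = 0.000401 first and 0.00605 second). It was called higher in all 7 fits. A region 1929 bp beyond the gene (48355651 to 48356501) rose from 83.5 and 85.3 to 88.0 and 90.9 (adjusted p = 0.0407 first and 0.00744 second). The promoter region was at 98.0 and 88.4 in WT against 97.1 and 98.0 in cKO. The first fit called it higher (adjusted p = 1.08e-05), but the genotypes overlapped, WT replicate 2 had 2 peaks there against 1 in each of the others, and the second fit did not call it (adjusted p = 0.285). Peaks covered 3573 and 3703 bp of the window in WT and 3962 and 4235 bp in cKO.

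**Figure D4:**
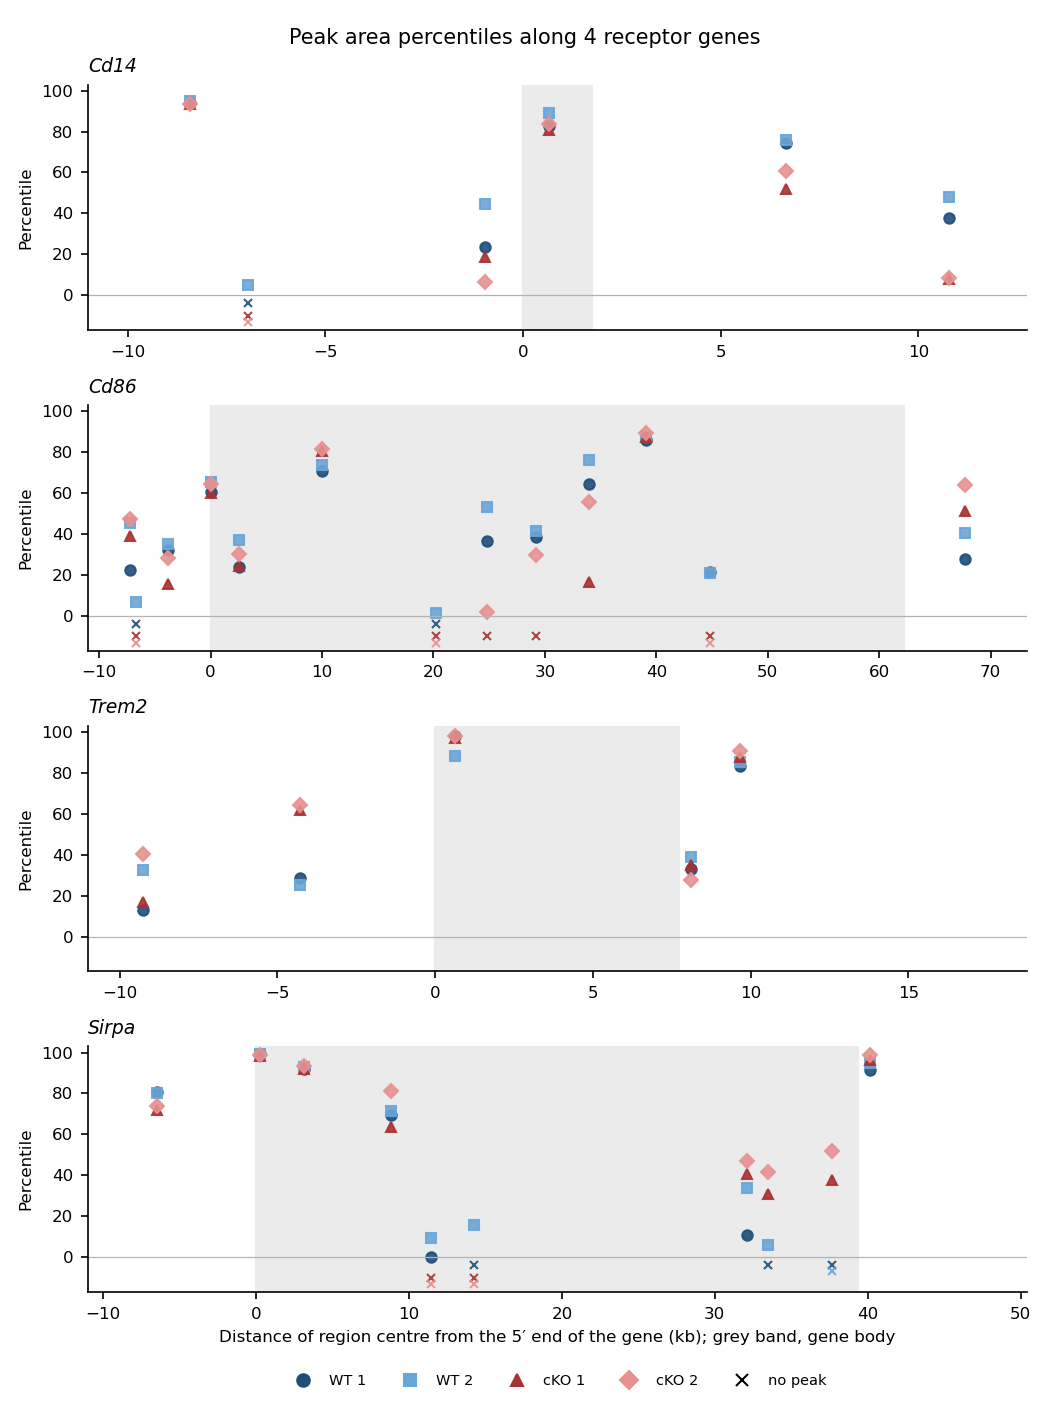
Percentile of each region (vertical axis) against distance from the 5′ end in kb (horizontal axis) for Cd14, Cd86, Trem2 and Sirpa, with crosses under 0 for libraries without a peak and a grey band for the gene body. Cd14 shows the fall at its 2 downstream regions, Cd86 a fall in intron 1 beside a rise beyond the gene, Trem2 a rise 4282 bp upstream, and Sirpa cKO symbols above WT toward its 3′ end.

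The length covered by peaks was higher in both cKO libraries than in both WT libraries for Sirpa, Axl, Cd68, Adgre1 and Trem2 (mean differences of 2493, 1366, 836, 704.5 and 460.5 bp), and lower for Mertk, Cd86 and Cd14 (-2796, -1079 and -1007 bp). Each of these 8 had an exact two-sided permutation p of 0.333, the smallest that this design can give. How often the genotypes separated in covered length among all genes is not given. Whether such separation was more common at the marker genes was therefore not tested. Total covered length also differed between libraries (31.0 and 35.2 Mb in WT, 28.4 and 32.7 Mb in cKO). Itgam (-391.5 bp) and Itgax (69.5 bp) overlapped between genotypes (p = 0.667 each, exact permutation), and both changed sign under some settings. When the weaker peaks of every list were dropped, the genotypes also overlapped for Sirpa (1321 bp), Cd14 (-524.5 bp) and Adgre1 (76.5 bp), with an exact permutation p of 0.667 each, and for Cd86 (-80 bp, exact permutation p = 1). The differences of Mertk and Axl were then -1842 and 734 bp, without overlap, and with lists of equal length Adgre1 overlapped (263.5 bp).

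**Figure D5:**
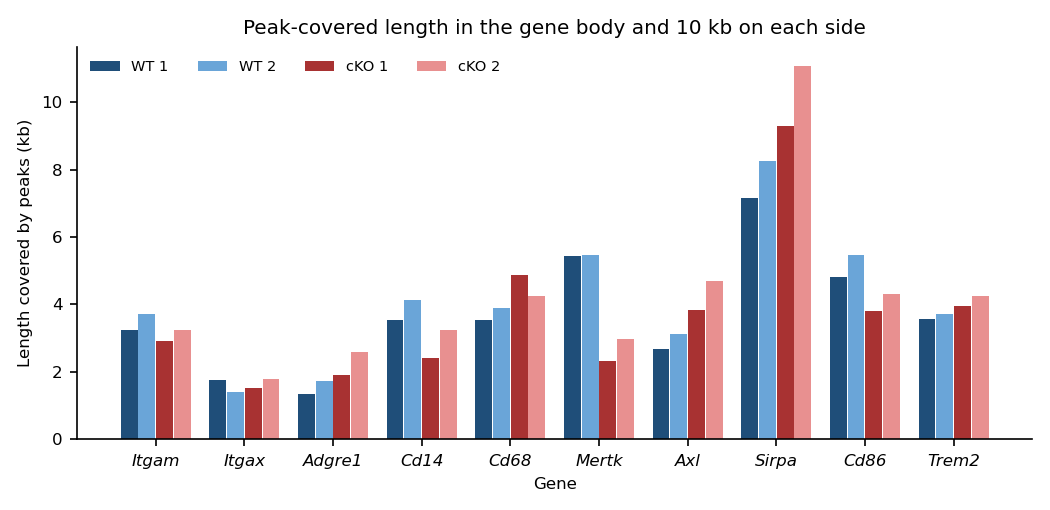
Length covered by peaks (kb, vertical axis) in the gene body and 10 kb on each side for the 10 genes, 1 bar per library. The cKO bars of Mertk (2330 and 2969 bp) lie far below the WT bars (5419 and 5472 bp), and the cKO bars of Sirpa (9302 and 11082 bp) lie above.

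Genes that act with these receptors, relatives of them and other macrophage genes were examined as a list of 20, here called partners. They had 158 regions, of which 7 were gained (4.43%, against 3.72% of all regions) and 9 lost (5.70%, against 7.25%). Of 114 shared regions, 24 (21.1%, against 22.2% of all shared regions) were higher and 52 (45.6%, against 35.1%) lower without overlap. Their median difference was -3.21, against -1.10 over all shared regions. The first limma fit called 7 higher (6.14%, against 6.77% of all shared regions) and 15 lower (13.2%, against 13.1%), and these shares of calls were near the background. By gene, Csf1r, the receptor for the growth factor that maintains macrophages, had 4 regions called lower and 2 lost. Its promoter region was at 73.7 and 85.3 in WT against 56.4 and 61.4 in cKO. Among TAM ligands, Gas6 had 3 lost regions (6.58 to 29.6 in WT) and 1 gained (0.239 and 30.8 in cKO), and Pros1 had a region called lower (71.0 and 70.0 against 45.9 and 53.8) and a gained region (35.1 and 42.5). Cd47, the ligand of SIRPα, had 2 regions called lower and 1 higher, with 2 gained and 1 lost. Tyrobp, the adaptor of TREM2, had 1 region called in each direction and 1 lost. Of the CD14 partners, Tlr4 and Ly96 each had 1 region called higher and 1 lower. Trem1, an inflammatory relative of TREM2, had a region called higher (12.3 and 37.5 against 60.9 and 68.6). The scavenger receptor genes Mrc1 and Msr1 had 2 regions called lower and 1 called higher, respectively, and each had 1 gained region, with 2 lost at Mrc1. Itgb2, the common beta chain, had 1 region called lower and 1 gained, Cd40 had 1 called lower and Ptpn6 had 1 in each direction. In the other partners (Tyro3, Cd80, Tlr2, Adgre4, Adgre5, Lamp1 and Fcgr1) no region was called, gained or lost.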

How the data were processed

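The 4 ATAC-seq libraries were 2 WT and 2 cKO BMDM cultures, which the titles call biological replicates; groups and numbers came from the titles. The authors aligned paired reads to mm10 with Bowtie2 2.5.1 and called peaks per library with Genrich at default settings, without pooling (per the labels and the study's methods). Read filters, duplicate removal and any shift for Tn5 are not given in the sources used here. Each deposited list gives a peak signal (Genrich's significance summed over the peak, here called its area, at least 200), a summit −log10 p-value and a score capped at 1000; the q-value column was -1 throughout. Signal gave the percentiles, the −log10 p-value an alternative, and the score was not used. Read depth was not analysed here, so no interval for counting error is given.

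Peaks of the libraries were merged in Python 3.11.15 (pandas 2.3.3, numpy 2.4.6) and annotated with GENCODE vM21, in 1-based coordinates. Percentiles were turned into normal scores and fitted with limma 3.58.1 (R 4.3.3, lmFit and eBayes with a trend). The code was run on simulated data in which each region had its own spread. The first fit took its spread wholly from the trend, so the simulation does not check its p-values on these data. Exact permutation tests were computed over the libraries. The study tested reads with DiffBind, which peak lists do not allow.

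The genes, partner list, cell type markers and motifs were chosen with earlier results of these data known. For each gene the text names its promoter region, each gained, lost or called region, and the shared region with the largest difference; regions beyond this rule (strongest regions and regions without overlap between genotypes) were named after their values were seen. Partners are named by their gained, lost or called regions. Partner results and alternatives use the first fit unless said otherwise. The alternatives are listed in the closing section.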

Additional observations from a re-analysis of the deposited data

How the results depend on the processing

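Alternatives were a stricter threshold (peaks above each list's median area), lists of equal length, gene windows of 2 kb and 25 kb, each library left out, at least 50% cover, a replicate block, summed area, summit p-value, area per bp, rank among shared regions and log2 area. Regions with 1 peak in each library, and the genes without Mertk, were added after seeing the data. Of 85 alternative values of the main counts and medians, 65 stayed within 1.5 times the value (or, for medians, 2.41 percentile points, the SD between replicates).

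The stricter threshold left 2 gained and 2 lost regions, and 9 of 28 shared regions were lower. Limma then called 6 of these 28, against 17.9% of all shared regions. Area per bp gave 6 higher regions and a median of -5.40, and limma called 5 of 47 regions, against 4.12% of all shared regions. With 25 kb, 20 of 70 shared regions were higher, and without Mertk 2 regions were lost. Genome shares for the counts other than limma calls are not given under these settings. Leaving out a library gave 7 to 12 lost, 12 to 19 higher and 19 to 29 lower regions, with medians of -4.04 to -0.257. The criteria for these counts are easier to meet with a library left out. The limma fit then called fewer regions, both at these genes and across the genome.

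Replicate numbers are shared between genotypes, but nothing says that they pair cultures; deviations of replicate 1 correlated at r = 0.295 across regions. With a replicate block, limma called 18 of 47 regions, against 33.9% of all shared regions (prior degrees of freedom 4.63). Within replicate number 1 and within number 2 the lost regions numbered 12 each, where the criterion was looser, with 1 library a genotype.

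Covered length reversed for Itgam (328.5 bp) and Itgax (-265 bp) at the stricter threshold, and for Itgax in replicate number 1 (-235 bp), without WT replicate 2 (-102.5 bp) and without cKO replicate 2 (-63 bp), where leaving out each library gave -102.5 to 241.5 bp. Normal-score differences reversed with area per bp at Cd68 region 4 (-1.10, adjusted p = 0.0219), Axl region 1 (-0.21), Sirpa region 10 (-0.86) and Trem2 region 3, the promoter (-0.16); with the summit p-value at Sirpa region 10 (-0.014) and Trem2 region 3 (-0.14); and with summed area at Trem2 region 3 (-0.11). In all, 75 of 101 alternative values for the 15 called regions kept direction and call, and 19 kept direction alone. The causes were not tested.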

Other observations

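The 16 regions called in other combinations of libraries were followed by gene. In 5 of them the peak was missing from cKO replicate 1 alone, and in each of these cKO replicate 2 was weaker than both WT libraries. At Mertk these were an intron 4 region (128747504 to 128747857) at 44.9 and 49.9 in WT and 7.03 in cKO replicate 2, and a region 733 bp beyond the gene (128803508 to 128803747) at 16.1, 21.6 and 2.86. At Cd86, an intron 1 region (36641006 to 36641524) was at 36.4 and 53.1 in WT and 2.10 in cKO replicate 2, and another (36636642 to 36637042) at 38.5, 41.7 and 29.6. At Itgam, the region 9349 bp upstream (128053101 to 128053482) was at 40.5 and 47.6 in WT and 4.25 in cKO replicate 2.

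The opposite pattern, a peak missing from 1 WT library and stronger in both cKO libraries, was seen at 3 regions. The Sirpa intron 7 region at 129625935 to 129626697 was at 5.99 in WT replicate 2 and 30.9 and 41.6 in cKO, next to the intron 7 region described above. The Itgax intron 14 region at 128137051 to 128137393 was at 2.56 in WT replicate 1 and 31.8 and 32.4 in cKO, about 1 kb from the intron 14 region of Itgax that was lower in both cKO libraries. The region 2124 bp upstream of Axl (25790714 to 25790945) was at 1.62 in WT replicate 2 and 3.08 and 10.4 in cKO. A further 5 regions had a peak in WT replicate 2 alone, the library with the longest list. None of these regions entered a test, since the missing values lie below the limit of the peak caller.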
